A study of Homo sapiens with 3 samples.

Results

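The deposited peak lists hold 327 RBPJ peaks and 57 L3MBTL3 peaks on chromosome 6, of 2926 RBPJ and 444 L3MBTL3 peaks in all. They were chosen by chromosome alone: every peak that the authors placed on chromosome 6 is included, and none was removed. Of the peaks elsewhere, 2568 RBPJ and 380 L3MBTL3 peaks lie on the other autosomes, which serve as the comparison, and 31 and 7 lie on chromosome X and were not compared. Chromosome 6 was picked because its number of peaks is high, so its peak density is given as a description.

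The study asked where RBPJ and L3MBTL3 meet on chromatin in MDA-MB-231 cells, an established line from a human triple-negative breast cancer with an aneuploid genome. Chromatin immunoprecipitation and sequencing (ChIP-seq) was done on untreated cells with the RBPSUH(D10A4) antibody of Cell Signaling for RBPJ (also called CBF1) and with anti-L3MBTL3 of Bethyl. Input DNA from the same line was also sequenced and is not analysed here. There is 1 library per antibody, so no value has a replicate, no test between conditions is possible, and the 95% Wilson intervals cover counting error only.

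RBPJ is the DNA-binding protein of the Notch pathway. It recruits corepressors when Notch is silent and the Notch intracellular domain with Mastermind when Notch is active, and it reads a short word that ends in GTGGGAA. L3MBTL3 carries MBT repeats, which bind methylated lysines, and has been described as a partner of RBPJ that brings in the histone demethylase KDM1A. Chromosome 6 carries the Notch target HEY2, the L3MBTL3 gene itself, the major histocompatibility complex (MHC) and the largest cluster of replication-dependent histone genes.

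The sequences below are the reference bases (hg19) under chromosome 6 peaks that hold the RBPJ word, CGTGGGAA or TGTGGGAA on either strand, and they are shown because that word is what RBPJ is known to bind. The first is the plus strand of chr6:126070528-126070777, a stretch of the shared HEY2 peak that ends at an annotated TSS, with the word in capitals as it reads on the plus strand, which is its reverse complement. The others are windows of 30 bases read along the strand of the word, with the word in capitals.
HEY2 stretch: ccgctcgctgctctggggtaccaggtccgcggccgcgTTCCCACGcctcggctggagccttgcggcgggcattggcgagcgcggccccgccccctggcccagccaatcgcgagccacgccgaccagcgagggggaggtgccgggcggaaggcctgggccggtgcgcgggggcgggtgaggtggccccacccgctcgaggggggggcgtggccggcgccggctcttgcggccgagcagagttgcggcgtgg
HEY2, minus strand, chr6:126070554-126070583: tccagccgaggCGTGGGAAcgcggccgcgg
HEY2, plus strand, chr6:126070762-126070791: cagagttgcggCGTGGGAAagagccgctag
RIPK1, plus strand, chr6:3064126-3064155: tgctcgtcaagTGTGGGAAaagctccgtgg
UBE3D, plus strand, chr6:83573546-83573575: ggatcttattcTGTGGGAAaccactttggc
MARCKS, plus strand, chr6:113953491-113953520: tcattactcacCGTGGGAAaatgattactt
CPNE5, plus strand, chr6:36788899-36788928: ctactaagccaTGTGGGAAaagagcattcc
CPNE5, plus strand, chr6:36788938-36788967: ccactaagccaTGTGGGAAaagagcattcc
ZKSCAN8P1, plus strand, chr6:28134890-28134919: agtataaggaaTGTGGGAAggccttctatg
ZKSCAN8P1, plus strand, chr6:28135058-28135087: agtgtgaagagTGTGGGAAagctttccatg

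HEY2 and RIPK1 are the shared chromosome 6 peaks that hold the word, whereas the other windows lie in peaks of RBPJ alone. UBE3D and MARCKS are the nearest protein-coding genes of peaks 201790 bp and 225040 bp from a TSS. In 3 chromosome 6 RBPJ peaks the word occurred more than once. The starts of the words lay 208 bp apart at HEY2, on opposite strands, 39 bp apart in an intron of CPNE5 and 168 bp apart in a coding exon of ZKSCAN8P1. The CPNE5 windows are nearly identical, and those of ZKSCAN8P1 resemble each other beyond the word. The words in these peaks thus lie in repeated sequence and need not be separate RBPJ sites.

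RBPJ peaks were more frequent on chromosome 6 than its genes or length give. It held 11.3% of the autosomal RBPJ peaks (10.2 to 12.5%) and 13% of the autosomal L3MBTL3 peaks (57 of 437, 10.2 to 16.5%). Its share of autosomal protein-coding genes was 5.44%, that of genes with a CpG-rich TSS was 5.53%, and that of ungapped bases was 6.24%. CpG-rich here means an observed over expected CpG ratio above 0.6 in 1 kb around the TSS. At the rate of the other autosomes per CpG-rich gene, chromosome 6 would hold 150 RBPJ and 22.3 L3MBTL3 peaks, so the counts were 2.17 and 2.56 times those numbers. Per base the same ratios were 1.91 and 2.26.

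The excess was larger per gene than per base. With 6.14 protein-coding genes per ungapped Mb, chromosome 6 ranked 13 of 22 autosomes. Per Mb it had 1.95 RBPJ peaks, rank 4, below chromosome 19 with 4.21. Per 100 genes it had 31.8 RBPJ peaks, rank 1, and the other autosomes ranged from 2.02 on chromosome 15 to 27.5 on chromosome 20 with a median of 14.5. For L3MBTL3, with every deposited peak counted, it ranked 1 on each scale, with 0.341 peaks per Mb and 5.54 per 100 genes, where chromosome 10, next in order, had 4.95 per 100 genes.

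The peaks were unevenly spread over the chromosome. The short arm held 288 of the 327 RBPJ peaks (88.1%, 84.1 to 91.2%) and 45 of the 57 L3MBTL3 peaks (78.9%, 66.7 to 87.5%), with 58.8% of the genes, 55.0% of the CpG-rich genes and 35% of the ungapped bases. It had 4.91 RBPJ peaks per Mb and 47.7 per 100 genes. Among 39 autosomal arms it ranked 2 per Mb and 1 per 100 genes, close to 18p with 47.0. The long arm had 39 RBPJ peaks, 0.359 per Mb and 9.20 per 100 genes, ranks 33 and 29. For L3MBTL3 the arms had 7.45 and 2.83 peaks per 100 genes, where 18p had 12.1.

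**Figure D1:**
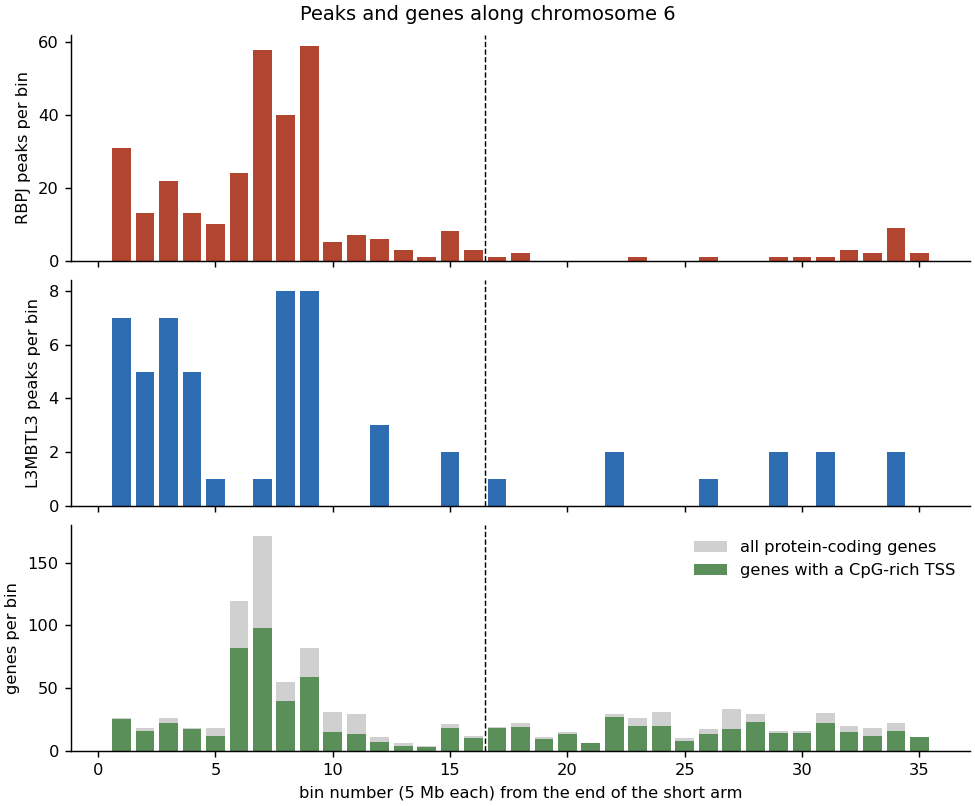
RBPJ peaks (top), L3MBTL3 peaks (middle) and protein-coding genes (bottom, with those of a CpG-rich TSS in green) in each 5 Mb bin of chromosome 6, numbered from the end of the short arm, with a dashed line after bin 16. RBPJ peaks reach 59 in bin 9 and 58 in bin 7, and 8 of the 19 bins after the line hold none.

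In fixed 5 Mb bins, RBPJ peaks varied within bins 1 to 9, from 10 in bin 5 to 59 in bin 9. At 45 Mb, within the short arm, they fell from the 59 of bin 9 to 5 in bin 10. Per 10 CpG-rich genes, bin 6 with 2.93 was already below bin 10 with 3.33. Bins 1 to 9 held 270 RBPJ peaks, or 6.01 per Mb and 72.8 per 100 CpG-rich genes. From 45 to 80 Mb there were 33, or 1.04 per Mb, near the 1.02 of the other autosomes, and 47.1 per 100 CpG-rich genes. From 60 to 80 Mb, nearly all of it in the long arm, there were 15, or 0.830 per Mb and 42.9 per 100 CpG-rich genes, of which only 35 lie there. A high density past the centromere was thus present per gene and not per Mb. Each of the first 16 bins, up to 80 Mb and thus into the long arm, held an RBPJ peak, 303 in all (92.7%), and 47 L3MBTL3 peaks. The 19 later bins held 24 RBPJ and 10 L3MBTL3 peaks among 381 genes, 297 of them CpG-rich. The 80 Mb boundary was chosen after the values were seen, as the end of the stretch with a raised background under the peaks (described below). Per 100 CpG-rich genes there were 68.7 RBPJ peaks before it, 8.08 after it and 20.4 on the other autosomes. For L3MBTL3 the same values were 10.7, 3.37 and 3.02, and the rate beyond 80 Mb was 0.396 times that of the other autosomes for RBPJ and 1.12 times for L3MBTL3. Per Mb both were lower there, 0.265 against 1.02 for RBPJ and 0.110 against 0.151 for L3MBTL3, the latter from 10 peaks.

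The bins with the most RBPJ peaks were 40 to 45 Mb with 59 peaks among 82 genes, 30 to 35 Mb with 58 among 171 genes and 35 to 40 Mb with 40 among 55 genes. Together they held 48.0% of the RBPJ peaks, 29.8% of the L3MBTL3 peaks and 30.0% of the genes. The most peaks per gene were found elsewhere, in the first 5 Mb, with 31 RBPJ peaks among 26 genes. From 25 to 35 Mb, which holds the histone clusters and the MHC, lay 290 genes (28.2%), 82 RBPJ peaks (25.1%) and 1 L3MBTL3 peak (1.75%). The first 25 Mb had 106 genes (10.3%), 89 RBPJ peaks (27.2%) and 25 L3MBTL3 peaks (43.9%). Across the 35 bins, RBPJ peaks and genes had a Pearson r of 0.77 and a Spearman rho of 0.36. Within the first 16 bins rho was 0.77 and within the 19 later bins it was 0.01. These bins share 1 library and neighbouring bins are not independent, so the coefficients are descriptions.

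The gaps on the long arm were wide. Between the RBPJ peaks at 88718913 (nearest gene SPACA1) and 113953484 (nearest gene MARCKS), 25.2 Mb with 91 protein-coding genes, 78 of them CpG-rich, held no RBPJ peak. A second gap of 18.5 Mb with 90 genes ran from HEY2 to a peak 64644 bp from STX11. In all, 8 of the later bins held no RBPJ peak, although 123 CpG-rich genes lie in them. The exception near the end of the long arm was 165 to 170 Mb with 9 RBPJ peaks, 3 of them at CEP43, which codes for a centrosomal protein.

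The background under the peaks was higher before 80 Mb than after it. As the boundary was drawn where the raised background ends, this difference describes the choice and is no separate result. Under RBPJ peaks the median background also fell at 45 Mb, from 4.18 in bin 9 to 2.2 in bin 10. The deposited fold is the ratio of the scaled read pileup to the caller's local background, each with 1 added. The pileup scale was 0.749 for RBPJ and 0.764 for L3MBTL3. The deposited −log10 p is a Poisson tail of the same pair. Both numbers could thus be solved for each of the 2926 and 444 peaks. Reads given for a peak are its pileup before scaling, so they are not on the scale of its background. The background is the number of reads that the caller expected under the summit, taken as the highest of a genome-wide floor and local levels. The floor was 1.29 reads for RBPJ and 1.18 for L3MBTL3. Per base it was 0.0235 in both lists, so the backgrounds of the lists are not independent of each other.

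The median background of chromosome 6 RBPJ peaks was 3.00 reads, against 2.0 over the other autosomes. By chromosome, the medians of the others reached at most 2.26, on chromosome 20, which also came next to chromosome 6 in RBPJ peaks per 100 CpG-rich genes (39.6 against 44.3). For L3MBTL3 the medians were 2.35 and 1.59, and here chromosome 20 was higher, at 2.5. The RBPJ median was 3.00 in bins 1 to 9, 2.48 from 45 to 80 Mb and 1.70 beyond. For L3MBTL3 it did not fall at 45 Mb: the same medians were 2.4, 3.0 (5 peaks) and 1.18. Single bins varied, with RBPJ medians of 2.22 in bin 4 and 4.29 in bin 8, and of 3.0 and 2.75 in bins 11 and 12. In the first 80 Mb the lowest background of any of the 303 RBPJ peaks was 1.98 reads and none was at the floor (0 of 303, at most 1.25%). Beyond 80 Mb, 7 of 24 RBPJ peaks were at the floor. For L3MBTL3, 0 of 47 peaks before 80 Mb and 7 of 10 after it were at the floor. On the other autosomes 5.84% of RBPJ and 17.4% of L3MBTL3 peaks were.

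**Figure D2:**
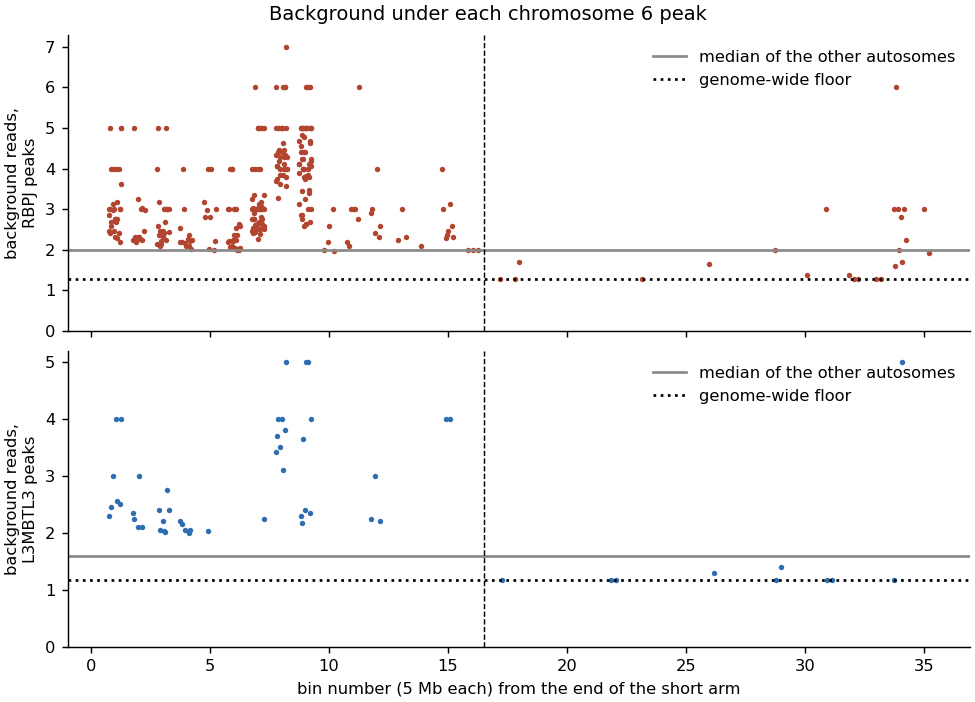
Background reads under each RBPJ peak (top) and L3MBTL3 peak (bottom), by 5 Mb bin numbered from the end of the short arm, with points spread sideways within a bin for legibility. The grey line is the median of the other autosomes (2.0 and 1.59), the dotted line is the genome-wide floor (1.29 and 1.18), and the dashed line follows bin 16. No peak before the dashed line is at the floor.

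Bins differed in background within the first 80 Mb too. The lowest background of any RBPJ peak was 3.27 at 35 to 40 Mb, where the median was 4.29, and the median at 40 to 45 Mb was 4.18. At 30 to 35 Mb it was 3.00. At 165 to 170 Mb, the late bin with the most peaks, it was 2.80, and the peak 171590 bp from THBS2 there had a background of 6.0 and the highest pileup of the chromosome, 56 reads.

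Over the 22 autosomes, the median background and RBPJ peaks per 100 CpG-rich genes had a Pearson r of 0.91 and a Spearman rho of 0.77. Chromosomes 13, 15, 16 and 22 had medians at the floor and 2.59 to 5.04 RBPJ peaks per 100 CpG-rich genes, and the other 17 autosomes apart from chromosome 6 had 15.5 to 39.6. For L3MBTL3, over 21 autosomes with at least 5 peaks, r was 0.33 and rho 0.19. The points of each plot share 1 library, and a background is known only where a peak was called. Chromosome copy number was not measured here, and its part in the number of peaks was not tested.

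**Figure D3:**
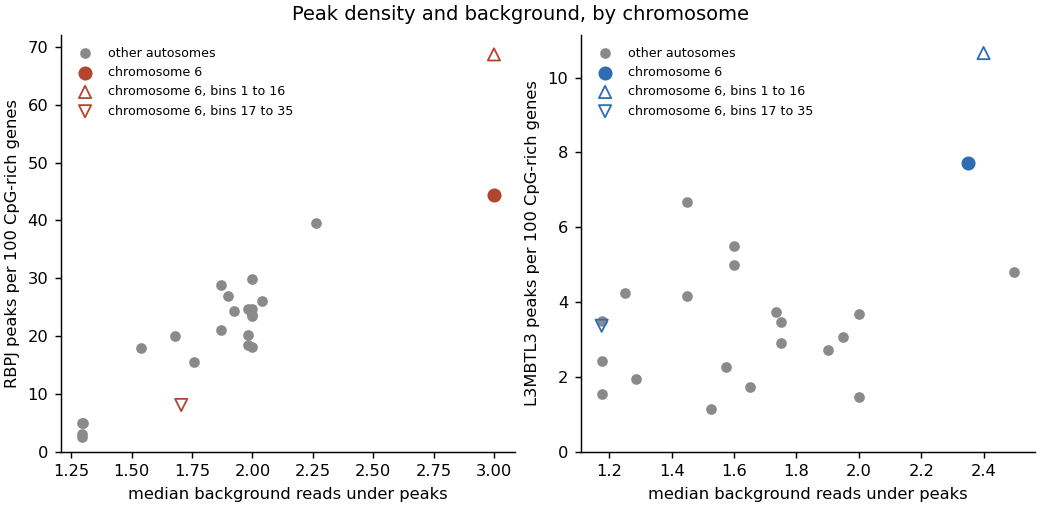
Peaks per 100 CpG-rich genes against the median background under the peaks, 1 point per autosome, for RBPJ (left) and L3MBTL3 (right), where autosomes with fewer than 5 peaks are left out. Chromosome 6 is the filled coloured point (44.3 at 3.00 for RBPJ), and the open triangles are its bins 1 to 16 and 17 to 35.

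The high count came with low folds. The median fold of chromosome 6 RBPJ peaks was 4.66 (quartiles 4.04 and 5.20), the lowest of 22 autosomes, against 5.14 over the others and 4.87 on chromosome 20, the next lowest. L3MBTL3 peaks had 4.87 against 5.68, the lowest of 21. The median −log10 p of RBPJ peaks was nevertheless 8.41 on chromosome 6 and 8.16 elsewhere, and the median pileup was 24 against 19 reads. Of the chromosome 6 RBPJ peaks, 100 of 327 reached the median fold of the whole list, compared with 1384 of 2568 elsewhere.

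A given significance is reached at a lower fold where the background is higher. For RBPJ, the lowest fold that reached the smallest −log10 p of the list, 5.16, was 4.68 (13 reads) at the floor, 4.08 (15 reads) at a background of 2, 3.62 (18 reads) at 3 and 3.35 (21 reads) at 4. At like background the folds of chromosome 6 were not lower than elsewhere. For backgrounds of 2.5 to 3.5 the medians were 4.67 (119 peaks) and 4.18 (325 peaks), and for 3.5 or more 3.99 (117 peaks) and 3.5 (97 peaks). Chromosome 6 thus held more of the autosomal peaks with a background of 3.5 or more than the other 21 autosomes together.

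**Figure D4:**
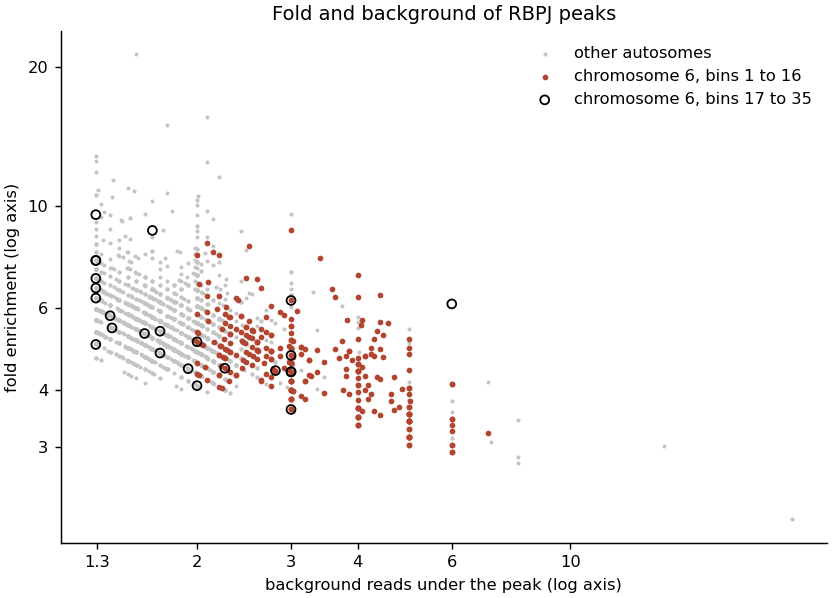
Fold enrichment against background reads for autosomal RBPJ peaks, both on log axes, with the peaks of chromosome 6 in colour (bins 1 to 16) or as open circles (bins 17 to 35). The lower edge of the cloud falls from 4.68 at the floor to 3.35 at a background of 4.

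With the fold limited to at least 4.68, the lowest that passes at the floor, 159 of 327 chromosome 6 RBPJ peaks and 8.07% of the autosomal peaks remained. There were then 21.5 peaks per 100 CpG-rich genes on chromosome 6, 14.4 on the other autosomes and 23.8 on chromosome 20, and 142 of the 159 peaks lay in the first 80 Mb. When pileups and backgrounds of the first 80 Mb were multiplied by 0.667, which sets their median background to that of the other autosomes, 200 of its 303 peaks still reached the smallest −log10 p of the list. The chromosome then held 8.02% of the RBPJ peaks and 30.4 per 100 CpG-rich genes, 1.49 times the rate of the others. For L3MBTL3, 26 of 47 peaks passed, and the ratio was 1.62. Only the first 80 Mb of chromosome 6 were scaled, so peaks could be lost there alone and none could be gained. The chromosome's share could thus only fall, and the size of the fall does not measure the part of the background.

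The first rank did not hold under each of these limits, nor for RBPJ when neighbouring peaks were merged. Per 100 CpG-rich genes, chromosome 6 ranked 2 for both proteins with the fold limited as above, and 2 for RBPJ and 4 for L3MBTL3 with the scaled background. With a −log10 q of at least 5 it ranked 1 and 3. With peaks within 1 kb merged and no limit set, it ranked 2 for RBPJ and 1 for L3MBTL3. The RBPJ value was then 33.74, against 33.96 on chromosome 20. At folds of at least the list median chromosome 6 ranked 7 and 6, with 1.23 and 1.35 times the rate of the other autosomes. L3MBTL3 peaks of such folds were then fewer per 100 CpG-rich genes in the first 80 Mb (1.81) than beyond it (2.69), from 8 peaks each.

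RBPJ reached more genes on chromosome 6 than on the other autosomes. Of 1028 protein-coding genes 226 had a summit within 10 kb of a TSS (22%), against 11.1% on the other autosomes and 11.7% over all autosomes. For L3MBTL3 it was 39 genes (3.79%), against 1.51% and, over all autosomes, 1.64%. In the first 80 Mb 32.5% of genes were near an RBPJ summit, and beyond it 4.20% (16 of 381).

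The difference was present within each class of promoter. Among CpG-rich genes, 42.4% (37.9 to 47.1%) were near an RBPJ summit before 80 Mb, 5.39% (3.34 to 8.57%) after it and 14.5% on the other autosomes. Among the other genes, the shares were 11.2%, 0 of 84 (at most 4.37%) and 3.04%. CpG-rich genes were near an L3MBTL3 summit in 7.03%, 2.02% and 2.07%.

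**Figure D5:**
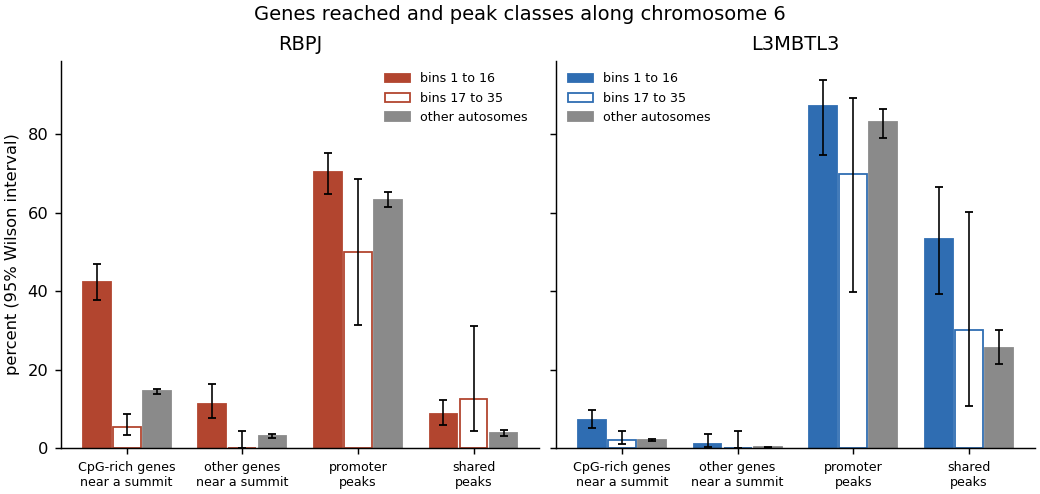
Percent of CpG-rich genes and of other genes with a summit within 10 kb, and percent of peaks that are at promoters or shared, for RBPJ (left) and L3MBTL3 (right), with 95% Wilson intervals. Bars are chromosome 6 bins 1 to 16 (filled), bins 17 to 35 (open) and the other autosomes (grey). For RBPJ, 42.4% of CpG-rich genes are reached in bins 1 to 16 and 5.39% in bins 17 to 35.

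Most peaks of both proteins were at promoters. Of the chromosome 6 RBPJ peaks, 225 had a summit within 1 kb of a TSS (68.8%, 63.6 to 73.6%), against 63.4% on the other autosomes, and chromosome 6 ranked 6 of 22. Beyond 80 Mb it was 12 of 24 (50.0%, 31.4 to 68.6%). Where the background was 3.5 or more, the promoter share of chromosome 6 peaks was 72.6% (63.9 to 79.9%), above the 47.4% of such peaks elsewhere (37.8 to 57.3%). For 2.5 to 3.5 it was 71.4% (62.7 to 78.8%) against 60.6% (55.2 to 65.8%), with overlapping intervals, as in both lower classes. A CpG-rich TSS was the nearest for 212 of the 225. Of the rest, 65 lay between genes, 34 in introns and 3 in coding exons. Promoters took 48 of 57 L3MBTL3 peaks (84.2%, 72.6 to 91.5%), against 83.2% elsewhere. The excess was not limited to promoters: peaks more than 1 kb from a TSS numbered 0.609 per Mb on chromosome 6 and 0.373 on the other autosomes, with 1.17 per Mb before 80 Mb and 0.132 after it.

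Peaks of both proteins coincided more often on chromosome 6. Shared peaks are those with 1 bp or more in common between the lists. Shared were 28 of 57 L3MBTL3 peaks (49.1%, 36.6 to 61.7%), against 25.5% on the other autosomes (21.4 to 30.1%), and 29 of 327 RBPJ peaks (8.87%, 6.25 to 12.4%), against 3.78% (3.11 to 4.59%). By these shares chromosome 6 ranked 2 of 21 autosomes for L3MBTL3 and 4 of 22 for RBPJ. For L3MBTL3, chromosome 12 had 50% (4 of 8 peaks) and chromosome 20 had 44.4% (8 of 18). For RBPJ, chromosome 13 was highest with 15.4% (2 of 13). As 126 of 2895 autosomal RBPJ peaks were shared in all, the density of RBPJ peaks moves with these shares, and its part in them was not tested. Split by background, 11.8% of chromosome 6 RBPJ peaks with a background of 2 to 2.5 were shared (6.36 to 21.0%) and 2.54% of those elsewhere (1.70 to 3.78%), whereas the intervals overlapped in the other 3 classes. Likewise 45.8% of chromosome 6 L3MBTL3 peaks with a background of 2 to 2.5 were shared (11 of 24) and 26.9% of those elsewhere (21 of 78). For 3.5 or more these were 66.7% (10 of 15) and 30.4% (7 of 23), and the intervals of L3MBTL3 overlapped in all 4 classes. Neighbouring peaks of 1 locus are counted separately in these shares and intervals. Several of the 10 lay at FKBP5, the nearest gene of 6 L3MBTL3 peaks.

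The shared peaks formed 30 pairs, with a median summit distance of 50.5 bp and 21 pairs within 100 bp. A shared RBPJ summit lay within 10 kb of a TSS of 25 chromosome 6 genes, or 2.43%, against 0.515% on the other autosomes and 0.619% over all. They lay at genes of several kinds. Transcription factors among them were FOXQ1, FOXC1 and FOXP4 of the forkhead family, the Notch target HEY2, the RAS-responsive factor RREB1 and the zinc finger gene ZNF318. Chromatin regulators were JARID2, a subunit of Polycomb repressive complex 2, and KDM1B, the paralogue of KDM1A. Further pairs were at the phosphatase gene DUSP22, the kinase gene RIPK1 of cell death signalling, CD83, DTNBP1, TMEM170B, ALDH5A1, FLOT1, MDGA1, the translation factor gene EEF1A1, the desmosome gene DSP, DST of hemidesmosomes and its neighbour BEND6. A pair of overlaps lay far from any coding TSS, 64644 bp from STX11 (folds 5.08 for RBPJ and 5.73 for L3MBTL3) and 171590 bp from THBS2 (6.13 and 4.50).

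HEY2, a repressor that Notch induces in many tissues, had the highest folds of the shared peaks in both lists. The RBPJ peak (126070359 to 126070947) had a fold of 8.86 from 30 reads over a background of 1.65, and the L3MBTL3 peak (126070343 to 126070949) a fold of 11.7 from 34 reads over 1.3. The summits lay 78 and 220 bp upstream of a TSS that sits inside a longer HEY2 transcript. Both peaks lie in the sparse long arm, with no other RBPJ peak within the same 5 Mb bin.

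KDM1B had folds of 7.82 for RBPJ (32 reads, background 2.19) and 5.96 for L3MBTL3 (22 reads, background 1.99), with summits 13 bp apart at its TSS (18155425 to 18155828). DSP had 2 pairs, at the TSS and 1407 bp into its first intron, and the L3MBTL3 fold of 7.22 at the TSS was the highest of that list in the first 80 Mb. ZNF318 had 6.65 and 5.77, with summits 2 bp apart. FLOT1 had 8.19 for RBPJ and 4.54 for L3MBTL3, 221 bp upstream of a TSS.

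FKBP5, which codes for a co-chaperone of the glucocorticoid receptor, had the most overlaps. It was the nearest gene of 5 RBPJ and 6 L3MBTL3 peaks. The overlaps lay at an internal TSS (35656083 to 35656780), at an intronic site (35695621 to 35695984) and at a site 3165 to 3400 bp upstream of a TSS. The intronic site also counts as a promoter, with summits 456 bp (RBPJ) and 711 bp (L3MBTL3) downstream of a TSS. RBPJ folds ranged from 4.27 to 5.66 there, and the background under those peaks had a median of 4.34, above the chromosome median.

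Of the 29 L3MBTL3 peaks that overlapped no RBPJ peak, 15 had an RBPJ summit within 1 kb and 9 had none within 100 kb. The highest folds lay beyond 80 Mb, at backgrounds near the floor. STX11, a syntaxin of immune cell granule release, had a fold of 6.47 (19 reads, background 1.40) with the summit 7 bp from the TSS. BEND3, a BEN domain repressor, had 2 peaks with folds of 6.43 and 6.08 (17 and 16 reads), and no RBPJ summit lay nearer than 6517708 bp. TENT5A and LRP11 had 5.73 each from 15 reads, and a peak 20430 bp from RAET1L had 6.43. In the first 80 Mb the highest folds were at TMEM170B (5.91), RREB1 (5.48), DLK2 (5.46) and ZNF318 (5.37). Of these only DLK2, a relative of the Notch ligand-like DLK1, had no RBPJ summit within 1 kb. The order by fold was not that by significance: TMEM170B had 25 reads and a −log10 q of 5.95, above the 4.85 of STX11.

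Among RBPJ-only peaks the highest fold was 9.58 (28 reads at the floor) in an intron of ARID1B, a subunit of the SWI/SNF chromatin remodeller (157207563 to 157207915). A second peak, 55895 bp upstream of ARID1B, had 7.62. At promoters the highest were GTF2H4, a subunit of the general factor TFIIH, with 8.86 (46 reads, background 3.00), HIVEP1 with 7.94, UBR2 with 7.73 (44 reads) and DDX39B, an RNA helicase gene, with 7.09 (46 reads). An intronic peak in EYS had 8.32, and peaks between genes had 7.82 near ADGRF1, 7.62 near UBE3D and 6.97 near SPACA1. Of these 10 peaks, 5 lay more than 10 kb from any TSS and beyond 60 Mb: the pair at ARID1B and those near EYS, UBE3D and SPACA1. At the other end, ZBTB22 and TBCC had the lowest fold, 2.92, from 26 reads over a background of 6.0.

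Several genes drew many RBPJ peaks. BRD2, a bromodomain reader of acetylated histones in the MHC, was nearest to 6 peaks with folds of 3.54 to 4.66 and no L3MBTL3 summit within 10 kb. IER3 and TRERF1 were nearest to 5 each, and 31 genes to 3 or more. IER3, an immediate early gene, shares its neighbourhood with FLOT1, so the shared peak between them counts for both within 10 kb.

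Genes of fixed lists were read against the 22% of chromosome 6 genes near an RBPJ summit and the 3.79% near an L3MBTL3 summit, and against 32.5% and 5.10% for the genes of the first 80 Mb. Most list members have a CpG-rich TSS. Among CpG-rich genes the shares were higher, 27.5% and 5.01% on the chromosome and 42.4% and 7.03% in the first 80 Mb. Of 6 Notch pathway genes and targets, 3 had an RBPJ summit within 10 kb: HEY2, CDKN1A and CCND3. CDKN1A, the p21 cell cycle inhibitor, had a highest fold of 5.16 (40 reads, background 5.0), 1667 bp from a TSS. CCND3, which codes for cyclin D3, had 3 RBPJ peaks up to 4.73 and 1 L3MBTL3 peak of 3.60, the lowest of that list on the chromosome. NOTCH4, the ligand gene DLL1 and MYB had neither.

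Of 18 chromatin regulators, 9 were near an RBPJ summit (50.0%) and 3 near an L3MBTL3 summit, KDM1B, JARID2 and BEND3. The RBPJ set held BRD2, PHF1 (5.36), CDYL (5.33), HMGA1 (5.34), PHF3 (4.83), EHMT2 (4.71) and DAXX (2.92) beside KDM1B and JARID2. All 9 lay in the first 80 Mb, where 13 of the 18 genes are. L3MBTL3 itself (TSS at 130334844) and HDAC2 had no summit of either protein within 10 kb.

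Of 20 early-response and stress genes, 9 were near an RBPJ summit and 2, IER3 and DUSP22, near an L3MBTL3 summit. RBPJ folds were 5.26 at PIM1, 5.26 at HSPA1B, 4.72 at NFKBIE and 6.64 at SOD2, the superoxide dismutase of mitochondria, whose peak lies at the TSS of the neighbouring WTAP. HSPA1A and HSPA1B are near-identical genes, so reads between them could have been placed at either. Beyond 80 Mb SOD2 was the only 1 of 9 list members so reached, and CCN2, SGK1, CITED2 and TNFAIP3 were not.

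Of 29 transcription factors, 11 were near an RBPJ summit and 5 near an L3MBTL3 summit (TFEB, HIVEP1, RREB1, FOXC1 and FOXQ1). E2F3 had 5.12, TFEB 4.77, TFAP2A 4.73, SRF 4.04 and NFYA 4.02. None of the 10 members beyond 80 Mb, among them ESR1, BACH2 and HIVEP2, was near either. Of 17 cell cycle and replication genes 7 were near an RBPJ summit, with TUBB and MDC1 near the same peaks (highest 6.27), and of the 6 beyond 80 Mb none was.

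The lists from the densest gene clusters lie wholly in the first 80 Mb, and their shares were below the 32.5% of all genes and the 42.4% of CpG-rich genes there. Of 17 genes of the MHC list, which holds HLA genes and genes of antigen processing, 4 were near an RBPJ summit (23.5%). This share rests on few genes, and only 11 of the 17 are CpG-rich. All 4 are antigen processing genes: TAPBP, and TAP1, PSMB8 and PSMB9, which share the same peaks. The HLA genes of the list, classical and other, had none within 10 kb. Of 52 replication-dependent histone genes, all CpG-rich, 13 were near an RBPJ summit (25%), with folds of 3.62 to 5.82, often 1 peak for several genes, such as H2BC11, H2AC11 and H4C9. No gene of either list was near an L3MBTL3 summit.

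The RBPJ word was less frequent under chromosome 6 peaks. It was present within 100 bp of the summit in 15 of 327 RBPJ peaks (4.59%, 2.80 to 7.43%) and in 0.917% of windows 2 kb to either side, against 8.80% (7.77 to 9.96%) of RBPJ peaks on the other autosomes. Of all windows of 100 bp to either side of a TSS, 1.43% hold it. In the first 80 Mb it was in 10 of 303 peaks (3.30%, 1.80 to 5.97%) and beyond it in 5 of 24 (20.8%, 9.24 to 40.5%): those at HEY2 and MPC1 and near UBE3D, MARCKS and EZR.

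The difference lay among peaks of low fold. Below the list's median fold, 1.76% of chromosome 6 peaks (4 of 227, 0.687 to 4.44%) held the word, against 5.74% elsewhere (4.56 to 7.22%). At or above it the shares were 11% (11 of 100, 6.25 to 18.6%) and 11.4%. The word was also rarer at chromosome 6 promoters (2.22%) than in the peaks away from them (9.80%), and the same order held elsewhere (5.71% and 14.1%). Of shared RBPJ peaks 2 of 29 held it (6.90%, 1.91 to 22%), against 23.7% (16.4 to 33.1%) on the other autosomes. Of chromosome 6 L3MBTL3 peaks 2 of 57 held it (3.51%, 0.968 to 11.9%), against 11.1% (8.28 to 14.6%). The intervals overlapped in both comparisons.

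The shorter core TGGGAA and the TEAD word were also less frequent on chromosome 6. TGGGAA was in 22.3% of RBPJ peaks (18.1 to 27.1%) and 15.9% of their flanks, against 30.3% of peaks elsewhere (28.6 to 32.1%). Of TSS windows, 14.7% hold it. At chromosome 6 promoters it was no more frequent in peaks (14.2%) than in flanks (15.1%), whereas away from promoters the shares were 40.2% and 17.6%. The AP-1 word (TGACTCA or TGAGTCA) was in 8.87% of chromosome 6 RBPJ peaks (6.25 to 12.4%), 2.60% of their flanks and 11.5% of peaks elsewhere (10.3 to 12.8%), so these intervals overlapped, and the share was 20.6% away from promoters. The TEAD word GGAATG was in 9.17% (6.50 to 12.8%), in 12.1% of flanks and in 14.3% of peaks elsewhere (13 to 15.7%). Of TSS windows, 2.45% hold the AP-1 word and 7.86% the TEAD word. All words were sought on both strands and may overlap each other. A match describes the bases and not a bound site.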

How the data were processed

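RBPJ and L3MBTL3 ChIP-seq peaks of MDA-MB-231 cells were analysed, 1 library each. Runs had 50 cycles and 30 to 40 M (megareads) aligned for each library, per the labels' protocols. Per the submitters' processing notes, the authors used Trimmomatic, BWA 0.7.15, hg19 and MACS2. For the caller, no version, cutoff or control is stated: these were not given in the sources used here. The deposited columns are the fold enrichment (a ratio), the −log10 p, the −log10 q and a score, which was not used.

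Pileup and background were solved from the deposited fold and −log10 p with the pseudocount 1 and a pileup scale of 0.749 (RBPJ) or 0.764 (L3MBTL3). The largest error in −log10 p was 3.26e-05 and 1.40e-04, and 1 peak in each list had more than 1 solution. The solution was checked on simulated peaks.

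Genes were 18893 autosomal protein-coding genes of GENCODE 44 mapped to hg19. Peaks were counted by chromosome, arm and 5 Mb bin. Values are percents with 95% Wilson intervals, with no test. Alternatives were stricter peaks, merged peaks, other windows, overlaps and bins, and the chromosome without 25 to 34 Mb.

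Named were all shared peaks, the 10 RBPJ-only and 10 L3MBTL3-only peaks of highest fold, list members with a summit within 10 kb and the fullest bins. Gaps, genes with many peaks and the lowest folds were named after their values were seen. The members and lists were chosen with earlier results of these data known. Python 3.11.15, scipy 1.17.1, pandas 2.3.3 and pysam 0.24.0 were used.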

Additional observations from a re-analysis of the deposited data

How the results depend on the processing

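Of 81 values under other settings, 45 stayed within the 95% interval of the value reported and 36 left it. No paired analysis was possible because there is 1 library per antibody. The settings with scaled backgrounds or the fold floor, and those of the background, were chosen after seeing the data. Chromosome 6 held 13.1% of RBPJ and 9.9% of L3MBTL3 autosomal peaks at −log10 q of at least 5, 6.74% and 7.34% at a fold of at least the list median, 8.07% and 9.17% at the fold that passes at the floor, and 8.02% and 8.65% with scaled backgrounds. Its RBPJ share was 10.1% with peaks merged within 1 kb and 8.9% without 25 to 34 Mb, where genes leave too: the rate per 100 CpG-rich genes was then 44.1, or 2.16 times that of the others, and for L3MBTL3 3.26 times. The short arm's share was 83% (RBPJ, fold), 90% (L3MBTL3, −log10 q) and 50% (L3MBTL3, fold: 8 of 16 peaks), the last below the 58.8% of genes that lie there. Genes near an RBPJ summit were 7.59% (−log10 q), 8.27% (fold), 12.9% (fold floor), 17.1% (scaled), 19.4% (without 25 to 34 Mb), 17.7% (within 1 kb), 39.3% (within 50 kb) and 27.5% (CpG-rich genes). For L3MBTL3 they were 1.07% (−log10 q), 1.46% (fold) and 5.54% (within 50 kb). Promoter shares were 60% (RBPJ, fold), 74% (RBPJ, 5 kb), 100% (L3MBTL3, −log10 q, 10 peaks) and 93% (L3MBTL3, 5 kb). Median folds at −log10 q of at least 5 were 5.75 and 5.9. Shared RBPJ peaks were 4.82% (−log10 q) and 15.9% (peaks within 1 kb), and shared L3MBTL3 peaks 62.8% (merged) and 75.4% (peaks within 1 kb). The background of chromosome 6 peaks over that of the other autosomes was 1.5 for RBPJ, 1.6 at −log10 q of at least 5 and 1.48 for L3MBTL3. Fewer peaks entered under the stricter settings, and beyond that the cause of these shifts was not tested.

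Since 1 library per antibody was made, differences between chromosomes could not be set against the spread of replicates, and low read numbers under most peaks limit the order of folds. Backgrounds are known only under called peaks, so the level between peaks and in the empty bins was not analysed here.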
